A study of Mus musculus with 4 samples.

Results

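Imprinted genes are transcribed mainly from the copy inherited from 1 parent, and 10 of them that are known for effects on growth and fat storage were followed in the subcutaneous adipose tissue (SAT) of the mice. The genes were *Mest*, *Peg3*, *Dlk1*, *Igf2*, *H19*, *Cdkn1c*, *Plagl1*, *Grb10*, *Ndn* and *Nnat*. The list was chosen by the log2 levels of *Mest* and *Peg3*, which had been seen to rise on these same arrays, so the values of these 2 genes are a description and support nothing. Of the 10 genes, 9 were measured, each by 1 probe set that names no other gene, among 19938 genes measured in all. No probe set names *H19*, the non-coding RNA next to *Igf2*, and it was not analysed here.

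RNA was hybridized to 4 Affymetrix MoGene 1.0 ST arrays, 1 per group. In the cKO-HFD and cKO-CT groups, C57Bl6 mice carried AP2 Cre with both *Napepld* alleles floxed (AP2 Cre NAPE PLD lox/lox) and ate a high fat diet (HFD, D12492) or a control diet (CT, AIN93M). In the WT-HFD and WT-CT groups the mice carried the same floxed alleles (NAPE PLD lox/lox) without Cre and ate the same diets. All mice were 16 weeks old. The mice were male, and those without Cre were littermates. The aP2 (*Fabp4*) promoter that drives Cre is active in adipocytes and is known to act in some macrophages as well. The paper reported no difference between the genotypes in *Napepld* expression of peritoneal macrophages. The labels state that RNA of 4 to 5 mice was pooled for each array, so an array is a single sample of its group, the spread between mice is not seen, and no difference below has a test. Differences of at least 1.5-fold between 2 arrays were called higher or lower.

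Imprinted genes lie in clusters in which a methylated control region sets which parental copy is read. Many paternally expressed genes, among them *Mest*, *Peg3*, *Igf2* and *Dlk1*, favour growth or the storage of nutrients in mice, while maternally expressed genes such as *Cdkn1c* and *Grb10* tend to restrain it. *Mest* encodes an enzyme of the endoplasmic reticulum with an alpha/beta hydrolase fold and is a known marker of fat mass expansion in mice. *Peg3* encodes a large zinc finger protein.

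The levels of the 9 measured genes did not bear out a network that moves together. *Mest* and *Peg3* were higher with HFD in both genotypes and higher with deletion on CT. As deposited, the other 7 measured genes stayed within 1.5-fold in all 4 comparisons. Of these 7, *Cdkn1c*, *Dlk1* and *Igf2* were dim, at log2 levels of 5.75 to 6.74, where processing of the arrays can shrink differences. *Zim1*, the gene next to *Peg3*, was also higher with HFD in both genotypes.

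The windows around the annotated start sites of *Peg3*, *Zim1* and *Mest* are shown because these are the imprinted genes that were higher with HFD in both genotypes. Each runs from 250 bases before to 50 bases after a start, taken from RefSeq on build GRCm38.p6, and reads 5′ to 3′ along the gene. Capitals mark the motif GGGGCCCC, the published binding sequence of PLAGL1.
Peg3 (chr7:6730370-6730669, minus strand): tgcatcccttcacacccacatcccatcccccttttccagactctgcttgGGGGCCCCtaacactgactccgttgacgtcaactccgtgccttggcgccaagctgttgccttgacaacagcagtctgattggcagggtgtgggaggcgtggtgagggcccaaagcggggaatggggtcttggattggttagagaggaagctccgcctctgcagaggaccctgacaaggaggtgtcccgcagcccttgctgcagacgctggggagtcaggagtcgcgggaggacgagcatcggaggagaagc
Zim1 (chr7:6696383-6696682, minus strand): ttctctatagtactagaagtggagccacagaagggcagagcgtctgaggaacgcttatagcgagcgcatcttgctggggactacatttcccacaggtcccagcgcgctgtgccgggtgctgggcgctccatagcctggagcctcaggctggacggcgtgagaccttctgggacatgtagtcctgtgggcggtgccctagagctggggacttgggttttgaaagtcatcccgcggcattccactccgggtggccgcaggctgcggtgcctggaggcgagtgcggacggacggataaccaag
Mest, upstream start (chr6:30733256-30733555, plus strand): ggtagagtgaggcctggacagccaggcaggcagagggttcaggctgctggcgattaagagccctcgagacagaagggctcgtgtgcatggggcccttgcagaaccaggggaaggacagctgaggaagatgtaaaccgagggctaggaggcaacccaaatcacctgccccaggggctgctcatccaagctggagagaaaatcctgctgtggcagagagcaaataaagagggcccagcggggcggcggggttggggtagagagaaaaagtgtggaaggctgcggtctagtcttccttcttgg
Mest, downstream start (chr6:30737800-30738099, plus strand): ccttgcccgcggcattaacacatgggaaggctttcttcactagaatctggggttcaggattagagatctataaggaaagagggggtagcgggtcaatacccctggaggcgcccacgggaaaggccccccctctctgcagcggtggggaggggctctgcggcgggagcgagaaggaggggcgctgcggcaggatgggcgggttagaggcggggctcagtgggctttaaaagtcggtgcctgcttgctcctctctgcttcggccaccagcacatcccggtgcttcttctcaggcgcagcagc
Both strands were searched, and GGGGCCCC, which is its own reverse complement, was found 1 time in the *Peg3* window and in no other of the 14 windows of the 8 listed genes that have any. Of all 32851 windows, 1.08% hold it. The window of *Usp29*, a ubiquitin peptidase gene transcribed away from *Peg3*, shares 263 bases with that of *Peg3* and holds the same match. The YY1 motif GCCATNTT was found in none of the 14 windows and in 6.05% of all windows. The *Peg3* window holds 13 CpG dinucleotides and the *Zim1* window 20, against a median of 7 over all windows, and 37.9% and 26.5% of all windows hold at least as many. The *Mest* windows hold 8 at the upstream and 17 at the downstream start. The windows of the genes that stayed within 1.5-fold cover the same range and more, with 2 to 45 CpG dinucleotides, the highest in a window of *Grb10*. A match is only a description of these letters.

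*Mest* had a log2 level of 12.08 on the cKO-HFD array, 11.54 on WT-HFD, 11.00 on cKO-CT and 10.06 on WT-CT. Both HFD arrays were above both CT arrays, and the cKO array was above the WT array on each diet. The gene was 2.78-fold higher in WT-HFD over WT-CT (log2 ratio 1.48) and 2.12-fold higher in cKO-HFD over cKO-CT (1.08). These diet comparisons share no array. With deletion it was 1.91-fold higher on CT (log2 ratio 0.93 for cKO-CT over WT-CT). On HFD the cKO-HFD over WT-HFD ratio of 0.54 did not pass 1.5-fold.
*Peg3* had a log2 level of 10.19 on cKO-HFD, 9.69 on WT-HFD, 8.55 on cKO-CT and 7.79 on WT-CT, the same order of the arrays as for *Mest*. Of all genes, 1205 (6.04%) placed the 4 arrays in that order. *Peg3* was 3.74-fold higher in WT-HFD over WT-CT (log2 ratio 1.90) and 3.11-fold higher in cKO-HFD over cKO-CT (1.64), where it ranked 15th and 8th among all genes. In cKO-CT over WT-CT its log2 ratio was 0.76, a 1.70-fold rise, and in cKO-HFD over WT-HFD it was 0.50, under 1.5-fold. *Mest* and *Peg3* belonged to 23 genes (0.115% of all) that were higher in cKO-CT over WT-CT, WT-HFD over WT-CT and cKO-HFD over cKO-CT, of which the first 2 share the WT-CT array.
The diet ratio in cKO mice minus that in WT mice was -0.39 for *Mest* and -0.26 for *Peg3* on the log2 scale. With 1 array per group this difference was not tested.
Markers of other cell types moved in some of the same comparisons. Of 12 macrophage markers, 9 were higher in WT-HFD over WT-CT, 6 in cKO-CT over WT-CT and 0 in cKO-HFD over cKO-CT, as deposited. Of 11 measured stromal progenitor markers, 5, 3 and 0 were higher in the same order of comparisons. In the last of these, 2 stromal markers were lower (*Dpp4*, -1.24, and *Pi16*, -0.92). No macrophage marker was lower in these comparisons. Over all genes 3.16%, 1.64% and 1.82% were higher in the same order, and 2.17% were lower in cKO-HFD over cKO-CT. The part of these cell types in the levels of *Mest* and *Peg3* was not tested.

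**Figure D1:**
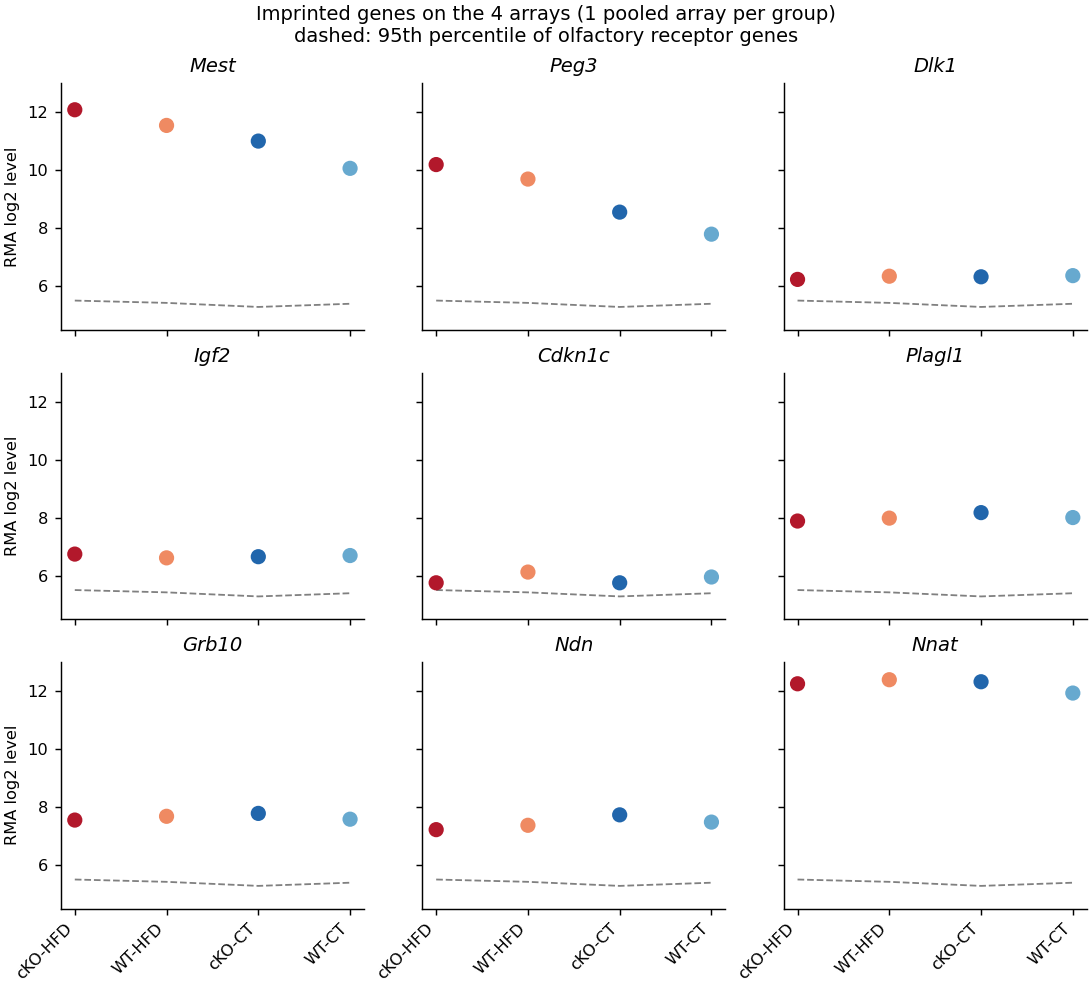
RMA log2 level (vertical axis) of each of the 9 measured imprinted genes on the cKO-HFD, WT-HFD, cKO-CT and WT-CT arrays (horizontal axis), 1 point per array; the dashed line is the 95th percentile of the olfactory receptor genes. *Mest* and *Peg3* are highest on cKO-HFD (12.08 and 10.19) and lowest on WT-CT (10.06 and 7.79), while the other 7 genes span 0.13 to 0.51 across the arrays.

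Of the 9 measured genes, 2 were higher and 0 lower in WT-HFD over WT-CT, where 3.16% of all genes were higher and 2.67% lower. In cKO-HFD over cKO-CT they were 2 and 0 (1.82% and 2.17% of all genes), in cKO-CT over WT-CT 2 and 0 (1.64% and 1.52%) and in cKO-HFD over WT-HFD 0 and 0 (1.04% and 2.11%). The 2 genes were *Mest* and *Peg3* each time, which the choice of genes fixed, so nothing is read from these shares. Over the other 7 genes the median log2 ratio was -0.02 in WT-HFD over WT-CT, -0.09 in cKO-HFD over cKO-CT, 0.17 in cKO-CT over WT-CT and -0.12 in cKO-HFD over WT-HFD, against 0.00, 0.02, 0.00 and 0.03 over all genes. Their log2 ratios ran from -0.51 to 0.47. Their levels spanned 0.13 to 0.51 across the 4 arrays, against a median span of 0.32 over all genes.

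**Figure D2:**
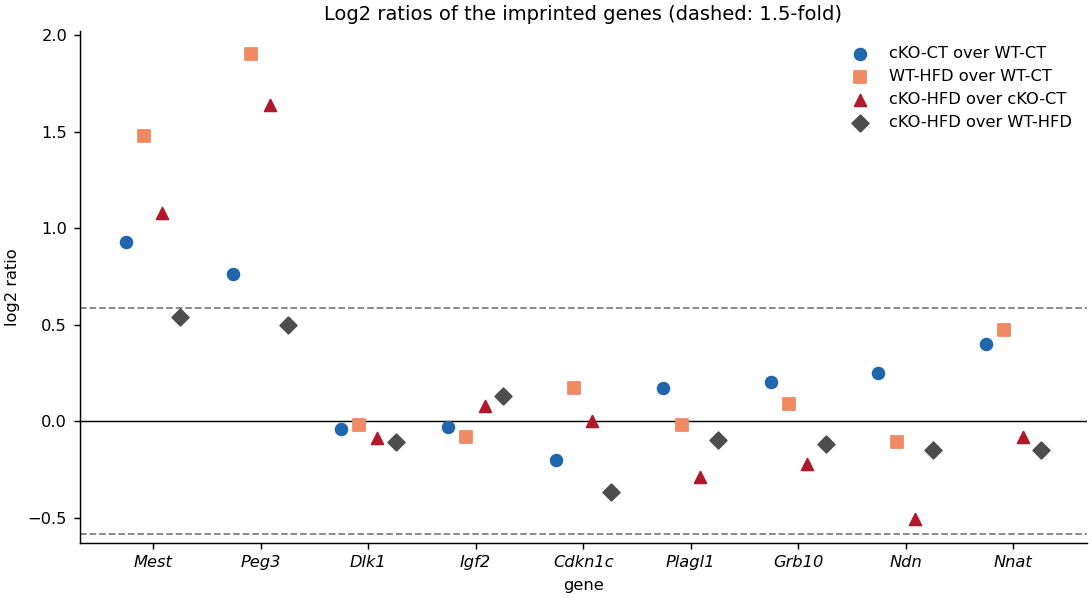
Log2 ratio (vertical axis) of each measured imprinted gene (horizontal axis) in 4 comparisons, 1 point per comparison, with dashed lines at 1.5-fold. Points of *Mest* and *Peg3* lie between 0.50 and 1.90, and those of the other 7 genes between -0.51 and 0.47.

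Among the growth factor and its partners, *Igf2*, which encodes a fetal growth factor that signals through the IGF1 and insulin receptors, had a log2 level of 6.74 on cKO-HFD, 6.61 on WT-HFD, 6.65 on cKO-CT and 6.69 on WT-CT. The arrays lay within 0.13 of each other, at a dim level where the processing can shrink differences. *Grb10*, an adaptor that dampens signals from those receptors, had 7.55 on cKO-HFD, 7.68 on WT-HFD, 7.78 on cKO-CT and 7.58 on WT-CT. Its log2 ratios were 0.09 in WT-HFD over WT-CT and -0.22 in cKO-HFD over cKO-CT. *Cdkn1c*, which encodes the cyclin-dependent kinase inhibitor p57, had 5.75 on cKO-HFD, 6.12 on WT-HFD, 5.75 on cKO-CT and 5.95 on WT-CT. It was the gene nearest the array background, for which the 95th percentile of the olfactory receptor (*Olfr*) genes was used, and it lay above 96.8% to 99.0% of the 1027 *Olfr* genes. Its largest log2 ratio was -0.37, in cKO-HFD over WT-HFD.

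Among the genes that act on fat cell formation, *Dlk1* (Pref-1), a surface protein of preadipocytes that holds back their differentiation, had log2 levels of 6.23 on cKO-HFD, 6.34 on WT-HFD, 6.32 on cKO-CT and 6.36 on WT-CT. It barely differed between the arrays, with a span of 0.13, but at this dim level the processing can shrink differences. *Ndn*, which encodes necdin, a MAGE family protein that restrains adipocyte differentiation in mice, had 7.22 on cKO-HFD, 7.37 on WT-HFD, 7.73 on cKO-CT and 7.48 on WT-CT. It was lowest on both HFD arrays, with log2 ratios of -0.51 in cKO-HFD over cKO-CT and -0.11 in WT-HFD over WT-CT, neither past 1.5-fold. *Plagl1*, a zinc finger transcription factor known to act on other imprinted genes, had 7.88 on cKO-HFD, 7.98 on WT-HFD, 8.17 on cKO-CT and 8.0 on WT-CT. Its log2 ratios were -0.29 in cKO-HFD over cKO-CT and -0.02 in WT-HFD over WT-CT.
*Nnat*, which encodes neuronatin, a small membrane protein of the endoplasmic reticulum, had log2 levels of 12.25 on cKO-HFD, 12.39 on WT-HFD, 12.32 on cKO-CT and 11.93 on WT-CT. WT-CT was the lowest array and the other 3 lay within a narrow range. The log2 ratio was 0.47 in WT-HFD over WT-CT, 0.40 in cKO-CT over WT-CT and -0.08 in cKO-HFD over cKO-CT, all within 1.5-fold. The first passed 1.5-fold (0.65) when the arrays were centred on adipocyte markers. Of these markers, *Gpd1* (-1.26) and *Slc2a4* (-0.69) were themselves lower in WT-HFD over WT-CT.

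A wider list of 42 imprinted genes gave 35 that were measured. In WT-HFD over WT-CT 2 were higher (*Zim1* and *Slc38a4*) and 1 was lower (*Mcts2*, at -0.71, or -0.53 and so within 1.5-fold with adipocyte centring). In cKO-HFD over cKO-CT 2 were higher (*Zim1* and *Peg10*) and 1 was lower (*Slc38a4*). In cKO-CT over WT-CT 1 was higher (*Slc38a4*), and in cKO-HFD over WT-HFD 1 was higher (*Zim1*) and 1 lower (*Slc38a4*). The median log2 ratios over the 35 genes were 0.08 in WT-HFD over WT-CT, 0.05 in cKO-HFD over cKO-CT, 0.04 in cKO-CT over WT-CT and 0.06 in cKO-HFD over WT-HFD. Read against the background shares given above, 1 or 2 genes of 35 is no result about these genes as a group. On each array 7 to 9 of the 15 paternally and 14 or 15 of the 20 maternally expressed genes lay above the *Olfr* percentile. Of the paternally expressed genes 1 of 15 was higher with HFD in WT and 1 of 15 in cKO mice, and of the maternally expressed genes 1 of 20 in each.

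*Zim1*, a maternally expressed zinc finger gene, had a log2 level of 7.30 on cKO-HFD, 6.51 on WT-HFD, 5.59 on cKO-CT and 5.21 on WT-CT. It kept the order of the arrays seen for *Peg3*. Its log2 ratio was 1.30 in WT-HFD over WT-CT, 1.71 in cKO-HFD over cKO-CT, 0.37 in cKO-CT over WT-CT and 0.78 in cKO-HFD over WT-HFD. The WT-CT level was under the *Olfr* percentile of that array (5.39), so the size of the ratios to WT-CT is not resolved. *Usp29*, on the other side of *Peg3*, lay below the *Olfr* percentile on all 4 arrays, with log2 levels of 3.81 on cKO-HFD, 3.67 on WT-HFD, 3.27 on cKO-CT and 3.54 on WT-CT.
*Peg10*, a paternally expressed gene derived from a retrotransposon, had 7.97 on cKO-HFD, 7.40 on WT-HFD, 7.28 on cKO-CT and 6.96 on WT-CT. It was also in the order of *Mest* and *Peg3*, but at log2 ratios of 0.44 in WT-HFD over WT-CT and 0.69 in cKO-HFD over cKO-CT it passed 1.5-fold in the cKO pair and not in the WT pair, where it did pass with adipocyte centring (0.62). *Sgce*, which encodes a sarcoglycan and is read in the opposite direction from a shared start region, had log2 ratios of 0.06 and 0.05 in the same 2 comparisons.
*Slc38a4*, an amino acid transporter gene, had 4.72 on cKO-HFD, 6.72 on WT-HFD, 5.69 on cKO-CT and 4.96 on WT-CT. It was highest on WT-HFD and below the *Olfr* percentile on cKO-HFD and WT-CT, and since each comparison uses 1 of these 2 arrays, the size of its ratios is not resolved. All 18 skeletal muscle markers were lower in cKO-HFD than in WT-HFD, and 16 were higher in WT-HFD over WT-CT and 16 lower in cKO-HFD over cKO-CT, the directions of *Slc38a4*. In cKO-CT over WT-CT, where *Slc38a4* was higher, 1 of the 18 was higher and 2 were lower. Their mean log2 level was 7.28 on cKO-HFD, 11.07 on WT-HFD, 9.38 on cKO-CT and 9.43 on WT-CT. Their part in the result was not tested.

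**Figure D3:**
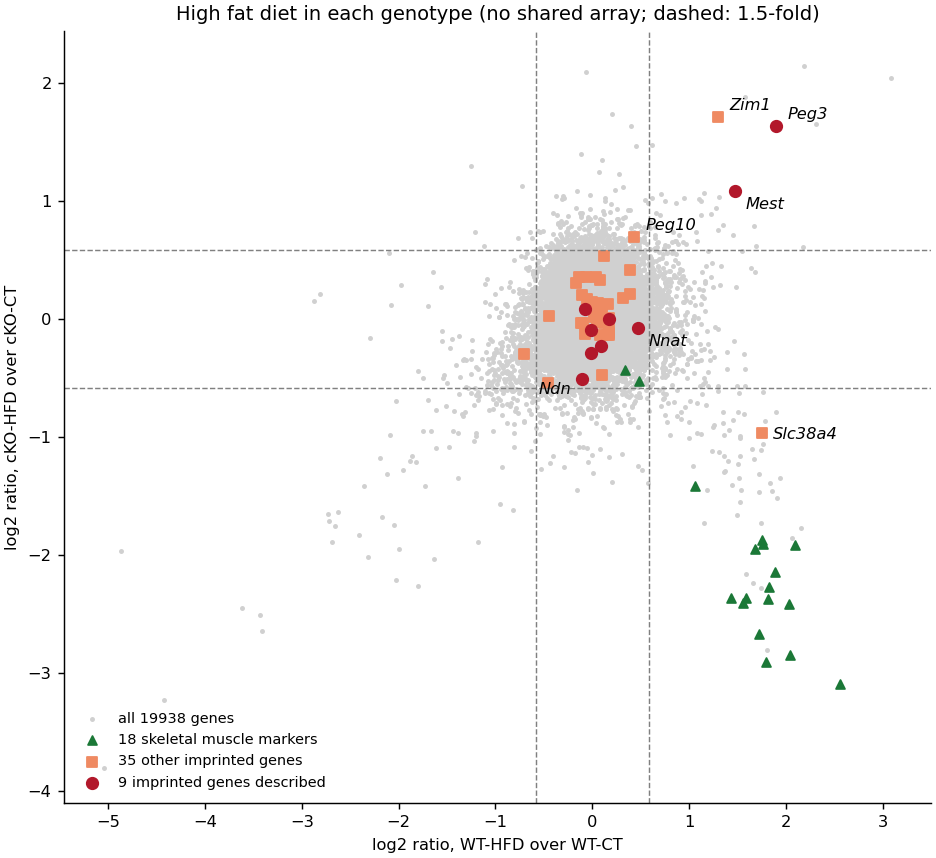
Log2 ratio of cKO-HFD over cKO-CT (vertical axis) against WT-HFD over WT-CT (horizontal axis), 1 point per gene, with the 9 imprinted genes described, 35 other imprinted genes and 18 skeletal muscle markers marked and dashed lines at 1.5-fold. *Mest* (1.08 and 1.48), *Peg3* (1.64 and 1.90) and *Zim1* (1.71 and 1.30) lie at the upper right, and *Slc38a4* (-0.97 and 1.75) lies beside the muscle markers.

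The genes on either side of each imprinted gene were read next, to see whether whole loci moved. The nearest measured neighbours numbered 18 besides the listed genes, counting *Mir335* and *Mir483*, which lie inside *Mest* and *Igf2*. Of these 18, 2 were higher in WT-HFD over WT-CT (*Zim1* and *Cobl*) and 2 in cKO-HFD over cKO-CT (*Zim1* and *Mir483*). In both comparisons 0 were lower. *Cep41*, *Mir335*, *Usp29*, *Begain*, *Zc2hc1b*, *Ddc*, *Gm32061* and *Magel2*, all among the 18, lay below the *Olfr* percentile on all 4 arrays. A change in these may not be seen, so the counts do not show that their loci stayed unchanged. Over all genes 3.16% and 1.82% were higher and 2.67% and 2.17% lower in these comparisons. At the *Mest* locus, *Copg2*, a coat protein gene of vesicle transport in the same imprinted cluster, had log2 ratios of 0.12 in WT-HFD over WT-CT and -0.03 in cKO-HFD over cKO-CT. *Klf14*, a maternally expressed transcription factor gene of adipose tissue, had -0.11 and 0.21. *Meg3*, the non-coding RNA of the *Dlk1* locus, had 0.18 and -0.14. *Cobl*, an actin regulator gene next to *Grb10*, had 0.75 in WT-HFD over WT-CT and -0.75 in cKO-HFD over WT-HFD. The muscle markers were higher and lower in those comparisons. In cKO-HFD over cKO-CT, where 16 of the 18 muscle markers were lower, *Cobl* had -0.33 and stayed within 1.5-fold. The part of muscle in the *Cobl* ratios was not tested.
*Mir335* lies within the span of *Mest*, and its mature arms are shown with bases 2 to 8, the seed, in capitals.
mmu-miR-335-5p: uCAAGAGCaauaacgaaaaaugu
mmu-miR-335-3p: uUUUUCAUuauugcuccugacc
The probe set that names *Mir335* stayed below the *Olfr* percentile on all 4 arrays, at 3.89 on cKO-HFD, 3.80 on WT-HFD, 4.08 on cKO-CT and 3.93 on WT-CT. At this signal no difference was detectable, and the arrays do not measure the mature miRNA.

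**Figure D4:**
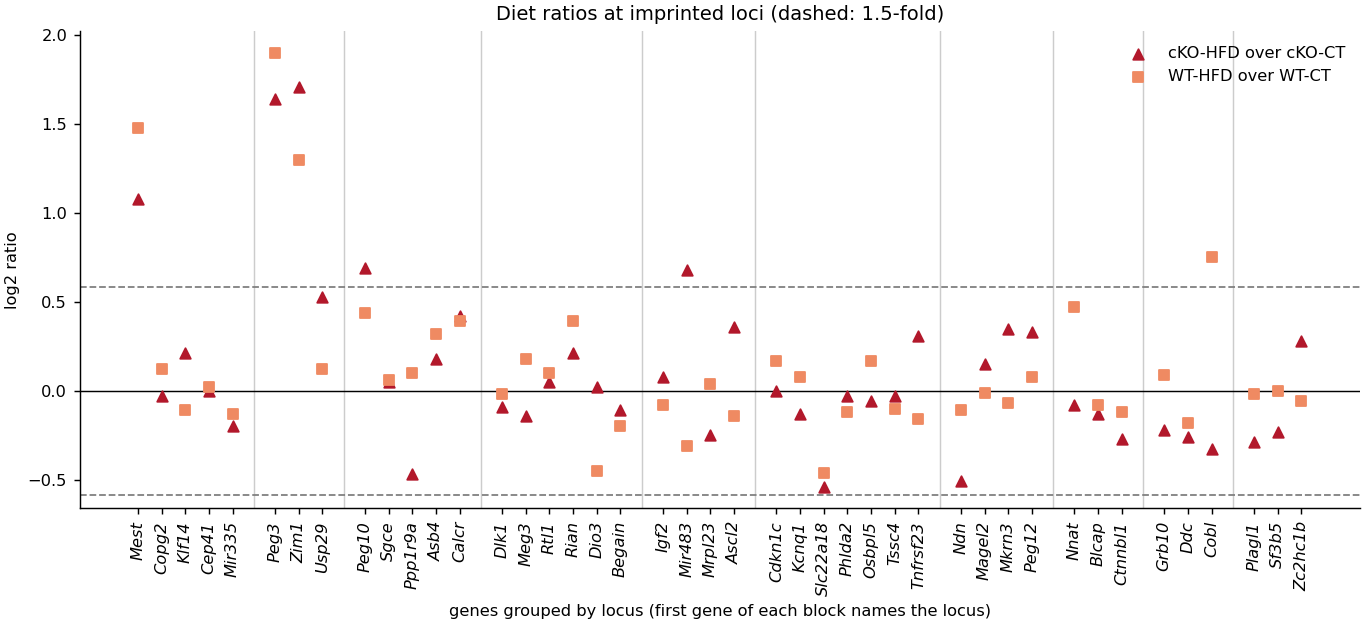
Log2 ratio (vertical axis) of cKO-HFD over cKO-CT and of WT-HFD over WT-CT for imprinted and neighbouring genes (horizontal axis), in blocks by locus, with dashed lines at 1.5-fold. In both comparisons *Mest* (1.08 and 1.48), *Peg3* (1.64 and 1.90) and *Zim1* (1.71 and 1.30) lie above the upper line.

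Partners of the imprinted genes were counted from lists chosen with earlier results of these data known. Their counts, those of the adipose expansion list included, are a description. Of 16 measured genes of the IGF and insulin axis, 2 were higher in WT-HFD over WT-CT (*Igfbp5* and *Igfbp3*) and 2 were lower in cKO-HFD over cKO-CT (*Irs2* and *Igfbp6*). In cKO-CT over WT-CT 1 was higher (*Igfbp5*, 0.74), and in cKO-HFD over WT-HFD 1 was lower (*Igfbp6*, -0.74). Over all genes 3.16% were higher in WT-HFD over WT-CT, 2.17% lower in cKO-HFD over cKO-CT, 1.64% higher in cKO-CT over WT-CT and 2.11% lower in cKO-HFD over WT-HFD. With adipocyte centring *Igfbp4* (0.75) and *Igfbp6* (0.61) also passed 1.5-fold in WT-HFD over WT-CT. On each array 10 of the 16 genes lay above the *Olfr* percentile. *Igfbp5*, an IGF binding protein gene, had log2 levels of 9.69 on cKO-HFD, 10.11 on WT-HFD, 9.72 on cKO-CT and 8.98 on WT-CT, with ratios of 1.13 in WT-HFD over WT-CT and -0.04 in cKO-HFD over cKO-CT. *Irs2*, a docking protein of the insulin receptor, had 7.38 on cKO-HFD, 7.77 on WT-HFD, 8.61 on cKO-CT and 8.21 on WT-CT, with ratios of -0.43 and -1.22. *Igf1r*, the receptor gene, stayed within 1.5-fold with 0.09 and -0.48.
Of 9 measured family relatives that are not imprinted, among them *Dlk2*, *Plagl2*, *Grb14* and *Cdkn1b*, 0 passed 1.5-fold in any of the 4 comparisons as deposited. The nearest was *Grb14*, a relative of *Grb10*, at 0.56 in WT-HFD over WT-CT, which passed with adipocyte centring (0.74). On each array 7 or 8 of the 9 relatives lay above the *Olfr* percentile. Of 10 factors that keep imprints, among them *Trim28*, *Zfp57*, *Ctcf* and *Dnmt1*, 0 were higher in any comparison. Of these, *Zfp57*, *Dnmt3b*, *Dppa3* and *Uhrf1* lay below the *Olfr* percentile on all 4 arrays, where a change may not be seen. *Uhrf1*, which guides DNMT1 to newly copied DNA, was the 1 factor lower in WT-HFD over WT-CT (-1.0) and in cKO-CT over WT-CT (-1.02), and it lay below the *Olfr* percentile on all 4 arrays.
Of 9 measured genes tied to adipose expansion, 4 were higher in WT-HFD over WT-CT, 3 in cKO-HFD over cKO-CT, 4 in cKO-CT over WT-CT and 1 in cKO-HFD over WT-HFD, and 0 were lower. Over all genes 3.16%, 1.82%, 1.64% and 1.04% were higher in the same order. With adipocyte centring the counts of this list were 6, 4, 4 and 0. After loess *Fgf1* (0.59) also passed 1.5-fold in cKO-HFD over cKO-CT, which made 4 there. The median log2 ratios of the list as deposited were 0.57, 0.35, 0.49 and 0.22, against the medians over all genes given above. *Sfrp5*, a secreted Wnt modulator, had log2 ratios of 2.18 in WT-HFD over WT-CT and 0.61 in cKO-HFD over cKO-CT. *Lep*, the leptin gene, had 1.35 and 0.80. Of 10 adipogenic regulators, 0 were higher in any comparison. *Srebf1*, a driver of lipid synthesis, was lower in WT-HFD over WT-CT (-0.59, or -0.41 and so within 1.5-fold with adipocyte centring) and in cKO-HFD over cKO-CT (-0.67). *Ebf2*, a transcription factor of brown and beige fat cells, was lower in cKO-HFD over cKO-CT (-0.72).

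The genes whose 4 levels lay nearest to those of *Mest* were searched among the 5361 genes whose log2 level averaged 7 or more. Levels were centred on each gene's mean, and likeness was the Euclidean distance over the 4 arrays, which is a description. The 5 nearest to *Mest* were *Trp53inp2* (0.12), *Lep* (0.22), *Slc6a13* (0.234), *Lbp* (0.261) and *Thbs1* (0.263). *Trp53inp2*, an autophagy gene, had log2 levels of 11.80 on cKO-HFD, 11.21 on WT-HFD, 10.77 on cKO-CT and 9.89 on WT-CT. For *Peg3* the nearest among the genes searched were *Mest* (0.505), *Oxtr* (0.507), *Trp53inp2* (0.605), *Thbs1* (0.65) and *Slc6a13* (0.665). *Zim1* averaged below 7 and was not searched. By the levels given above it lies nearer to *Peg3* than *Mest* does, with its WT-CT level under the *Olfr* percentile. Other genes that average below 7 were not searched either, so further nearer genes are not excluded. *Oxtr*, the oxytocin receptor gene, had 9.11 on cKO-HFD, 7.91 on WT-HFD, 7.23 on cKO-CT and 6.33 on WT-CT, with a log2 ratio of 1.20 in cKO-HFD over WT-HFD. In that comparison *Trp53inp2* (0.59, or 0.50 and so within 1.5-fold with adipocyte centring) and *Slc6a13* (0.63) also passed 1.5-fold. Adipocyte centring takes 0.09 off each ratio there, which brings *Slc6a13* within 1.5-fold too.

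**Figure D5:**
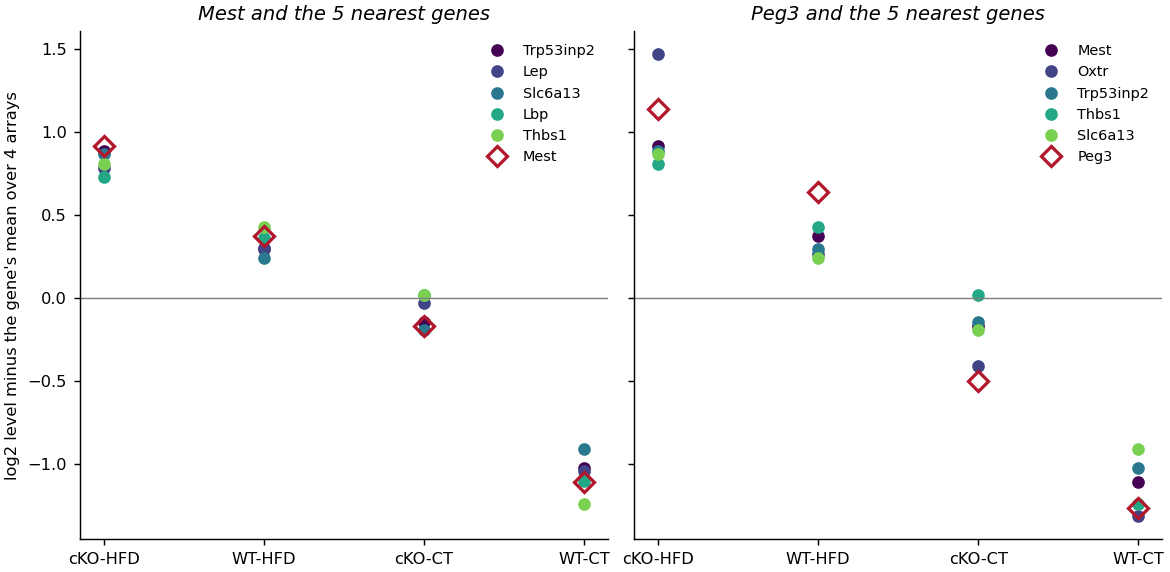
Log2 level minus the gene's mean over the 4 arrays (vertical axis) on the cKO-HFD, WT-HFD, cKO-CT and WT-CT arrays (horizontal axis). Open diamonds are *Mest* and *Peg3*, and dots are the 5 genes nearest to each among the genes searched. The dots follow *Mest* within 0.12 to 0.263 in distance and *Peg3* within 0.505 to 0.665.

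The tissue markers bear on how these ratios can be read, since in bulk RNA a change in the share of a cell type and a change in RNA per cell cannot be told apart. The 11 measured adipocyte markers lay above the *Olfr* percentile on every array, with mean log2 levels of 12.19 on cKO-HFD, 12.06 on WT-HFD, 12.20 on cKO-CT and 12.11 on WT-CT. With arrays centred on 10 of them, without *Lep*, the *Mest* ratios were 1.66 in WT-HFD over WT-CT and 1.17 in cKO-HFD over cKO-CT, and those of *Peg3* 2.08 and 1.72. The mean of these 10 shifted by -0.18 in WT-HFD over WT-CT, where *Gpd1* (-1.26) and *Slc2a4* (-0.69) were lower. The rest of the 10 stayed within 1.5-fold there. Centring in that comparison therefore also carries the diet ratios of *Gpd1* and *Slc2a4*. Stromal progenitor markers averaged 8.59, 8.97, 8.73 and 8.38 on the same arrays and macrophage markers 8.11, 8.45, 8.21 and 7.68. Pancreatic acinar markers averaged 5.40 on cKO-HFD, 5.48 on WT-HFD, 5.30 on cKO-CT and 7.09 on WT-CT, so the WT-CT array stood apart in them. The cKO-HFD over cKO-CT ratios of *Mest* and *Peg3* do not use that array. The part of muscle, acinar and other cell types in the *Mest* and *Peg3* ratios was not tested. *Napepld*, the targeted gene, had log2 levels of 7.94 on cKO-HFD, 8.01 on WT-HFD, 7.78 on cKO-CT and 8.31 on WT-CT, with no ratio past 1.5-fold. The paper reported the deletion in SAT by qPCR on both diets and found no detectable NAPE-PLD protein in white fat of cKO mice. It saw residual *Napepld* RNA in the tissue and placed the decrease in the adipocyte fraction only. Whether the *Napepld* probe set lies in the floxed part is not known here.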

How the data were processed

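Subcutaneous adipose tissue RNA was measured on 4 MoGene 1.0 ST arrays, 1 pool of mice per group. Values were deposited by the authors on a log2 scale, 1 per probe set, after RMA (RMA-Sketch of the APT suite per the paper, Affymetrix Expression Console per the processing notes); RMA subtracts background, equalises the distributions of the arrays and condenses probes, which can shrink differences of dim genes. The arrays had medians of 5.55 to 5.60 over probe sets, and r between them across genes was 0.98 to 0.989. Precision is limited by having 4 arrays.

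Gene names came from GEO's annotation of the platform, some of it outdated. Of 35556 probe sets, 21789 had 1 gene name, 1621 several and 12146 none, and a gene's level was the mean over probe sets with 1 name. Log2 ratios were taken in 4 comparisons and counted at 1.5-fold, the size the study used. No test was run, since each group has 1 array.

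The imprinted genes and all lists were chosen with earlier results of these data known. Named genes are the listed genes, their nearest measured neighbours and up to 4 members of each further list with the largest diet ratio past 1.5-fold. Members that describe small counts and the 5 searched genes nearest to *Mest* and *Peg3* are also named. *Copg2*, *Klf14*, *Sgce*, *Igf1r*, *Igfbp4*, *Grb14* and members named as examples of a list were chosen after their values were seen, as were the blocks of the locus plot. Markers of brain and of skin and mammary epithelium, endothelium and smooth muscle were also listed. Neighbours and sequences came from RefSeq tables on GRCm38.p6, whose relation to the build behind the arrays is not given in the sources used here.

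Alternatives were cyclic loess (span 0.7, 3 iterations), centring on the median gene, the highest probe set, filters on low levels, a 2-fold size, counts per probe set, and, added after seeing the data, centring on adipocyte markers. The steps were tested on simulated data. Python 3.11.15, numpy 2.4.6, pandas 2.3.3, matplotlib 3.10.9, R 4.3.3 and limma 3.58.1 were used.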

Additional observations from a re-analysis of the deposited data

Results flagged for a closer look

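With HFD, *Slc38a4* had opposite signs in the genotypes, with a log2 ratio of -0.97 in cKO-HFD over cKO-CT and 1.75 in WT-HFD over WT-CT, a difference of -2.72 that was not tested. The genotype ratios, -2.00 on HFD and 0.72 on CT, give the same difference by construction. Its level lay below the *Olfr* percentile on cKO-HFD and WT-CT, so the size of these values is not resolved. The median of the 18 skeletal muscle markers was likewise -2.32 in cKO-HFD over cKO-CT and 1.76 in WT-HFD over WT-CT, a difference of -4.07 that was not tested. No listed imprinted gene passed 1.5-fold in opposite directions.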

How the results depend on the processing

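Each of the 36 log2 ratios of the 9 imprinted genes (4 comparisons) changed by less than the spread of ratios among the 500 genes nearest in level, under cyclic loess, centring on the median gene and centring on adipocyte markers (added after seeing the data). Use of the highest probe set and counts per probe set leave the values as they are by construction, since each gene has 1 probe set. The count of these genes called stayed within 1.5 times under all other alternatives except the 2-fold size. At that size 0 instead of 2 were higher in cKO-CT over WT-CT. With adipocyte centring 3 instead of 2 were higher in WT-HFD over WT-CT, with *Nnat* (0.65) added, which is at the limit of 1.5 times. At 2-fold, of the other imprinted genes 0 were higher in cKO-CT over WT-CT and 0 lower in WT-HFD over WT-CT, 1 was higher and 0 lower in cKO-HFD over cKO-CT, and 0 were higher in cKO-HFD over WT-HFD, which follows from the stricter size. Without *Mest* and *Peg3*, the median over the listed genes in WT-HFD over WT-CT was -0.02 in place of 0.09. Calls that changed with adipocyte centring are given beside the genes, one by one or as counts, for the lists other than cell type markers. The exception is *Usp29*, which passed 1.5-fold in cKO-HFD over cKO-CT (0.62) at levels below the *Olfr* percentile. Counts of cell type markers are given as deposited only. In WT-HFD over WT-CT this centring shifts ratios enough that *Pdgfrb* (0.55) and *Csf1r* (0.55), among others, would pass 1.5-fold. *Slc2a4* (-0.69) would no longer pass. After loess *Mest* had 0.87, 1.43, 1.11 and 0.55 and *Peg3* 0.67, 1.87, 1.68 and 0.48 in cKO-CT over WT-CT, WT-HFD over WT-CT, cKO-HFD over cKO-CT and cKO-HFD over WT-HFD. With 1 array per group no array could be left out, and no paired analysis was possible because each group holds a single array.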

Other observations

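*Mir483*, which lies within the span of *Igf2*, had log2 levels of 7.18 on cKO-HFD, 6.67 on WT-HFD, 6.50 on cKO-CT and 6.99 on WT-CT. Its log2 ratio was 0.68 in cKO-HFD over cKO-CT and -0.31 in WT-HFD over WT-CT, while those of *Igf2* were 0.08 and -0.08. A probe set named for both *Mir675*, which *H19* RNA carries, and *Supt6* had 5.66 on cKO-HFD, 6.19 on WT-HFD, 5.54 on cKO-CT and 5.74 on WT-CT, and its signal was assigned to neither gene. Endothelial markers averaged 8.93 on cKO-HFD, 8.55 on WT-HFD, 8.78 on cKO-CT and 8.38 on WT-CT, and smooth muscle markers 7.19, 7.41, 7.32 and 6.96. Markers of brain averaged 4.87 to 5.07 and those of skin and mammary epithelium 5.06 to 5.22 over the 4 arrays.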
